A study of Mus musculus with 14 samples.

Results

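Irradiated mouse hearts were compared between 6 weeks (IRR_6w, n = 4) and 1 day (IRR_1d, n = 3) after the exposure, across all genes, and each change was set beside the change in unirradiated hearts over the same time (Control_6w, n = 4, against Control_1d, n = 3). These are 7 irradiated libraries of 14 in the series, chosen by their labels, with 1 library per mouse. The hearts came from male C57BL/6J mice, labelled WT, that were 8 weeks old at the start, so every mouse at 6 weeks was also older than every mouse at 1 day. The irradiated mice had received 30 Gy of cobalt γ-rays to the front of the chest under pentobarbital anaesthesia, with lead over the rest of the body, and RNA of heart tissue was sequenced. The time of day at which the hearts were taken was not given in the sources used here. Time point and any batch of handling cannot be told apart, and whether both arms shared their handling was not given. The change in irradiated hearts minus the change in controls (the difference of changes) removes only what is equal in both.

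Ionizing radiation breaks DNA and activates the transcription factor p53, which switches on genes of cell cycle arrest and repair within hours. Dividing cells and lymphocytes are the most sensitive, while cardiomyocytes hardly divide. The late phase in heart is known for leukocyte infiltration, loss and repair of small vessels and fibrosis. Antigen-presenting cells (macrophages, dendritic cells and B cells) display peptides on major histocompatibility complex (MHC) class II molecules, and interferon from T and NK cells raises class II and class I genes in many cell types.

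Counts per library ranged from 13336746 to 16837265. Of 54532 genes in the table, 16034 had enough counts to be tested. Cardiac markers were abundant in all 14 libraries, with the summed level of 12 cardiomyocyte genes between 5707 and 48472 CPM (counts relative to the library size, the latter scaled by TMM). The lowest sum was in Control_6w replicate 3, which also held thymus transcripts at a sum of 4431 CPM and brown and white fat transcripts at 874 and 909 CPM. IRR_6w replicate 1 and IRR_1d replicate 3 held atrial (3004 and 2073 CPM) and fat transcripts, and the former also those of lung epithelium (426 CPM). These 3 libraries had the highest fat sums and are called those with high fat transcripts. Atrial transcripts were also at 596 CPM in Control_1d replicate 2. Male germ cell transcripts were at 103, 95.8 and 77.9 CPM in Control_6w replicates 1, 2 and 3. Red cell transcripts had sums of 63075 CPM in IRR_6w replicate 1, 33682 in Control_1d replicate 3 and 2111.9 to 11844 in the rest. The 7 red cell genes had median changes of 2.31 in irradiated hearts and -2.36 in controls, and their part in other results was not tested. Control_1d replicate 1 and IRR_6w replicates 3 and 4 had 0 counts at 8.01 to 29.6% of the genes that average 2 to 5 CPM, so a level of 0 in these 3 is no measure of absence. Leaving out the latter 3 keeps 2 libraries of IRR_6w. Where the share of all genes is not given, numbers from fits with libraries left out are no result about a list. In bulk tissue, fewer cells of a type and less RNA per cell cannot be told apart.

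From 1 day to 6 weeks, 6 genes changed in irradiated hearts, called at a fold change above 2 or below 0.5 with an adjusted p under 0.05 (edgeR quasi-likelihood test, Benjamini-Hochberg over 16034 genes). H2-Eb1, H2-Aa, H2-Ab1, Cd74 and Dnaja1 rose (0.0312% of genes tested), and Nr1d2 fell (0.00624%). In controls 0 genes were called by edgeR, and 601 had an unadjusted p under 0.05 with that fold. The difference of changes gave 0 calls by edgeR and 458 genes at the unadjusted p. DESeq2 called 140, 26 and 37 genes in the 3 comparisons, and limma-voom called 10, 0 and 0. At the unadjusted p, 491 genes were higher (3.06%) and 126 lower (0.786%) at 6 weeks in irradiated hearts, beside 2.72% and 1.03% in controls and 1.98% and 0.879% for the difference of changes. Early and late libraries did not overlap in 5.47% (higher late) and 3.84% (lower late) of genes in irradiated hearts, and in 3.39% and 2.53% in controls. Irradiated and control libraries of the same time did not overlap in 6.52% (higher in irradiated) and 4.14% (lower) of genes at 1 day, and in 4.08% and 1.64% at 6 weeks. Each group held 3 libraries at 1 day and 4 at 6 weeks. Smaller groups separate more often by chance alone, so the shares of the time points cannot be compared. Changes were positive in 48.5% of genes in irradiated hearts and 59.1% in controls. Of the 491 higher genes, 316 had a positive change in controls too and 62 passed the same limits there. Among the 126 lower genes, 91 had a negative change in controls and 15 passed. Across all tested genes the correlation of the changes in both arms, which share no library, was r = 0.288 (Spearman's rho = 0.160), a description over genes that are not independent replicates.

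**Figure D1:**
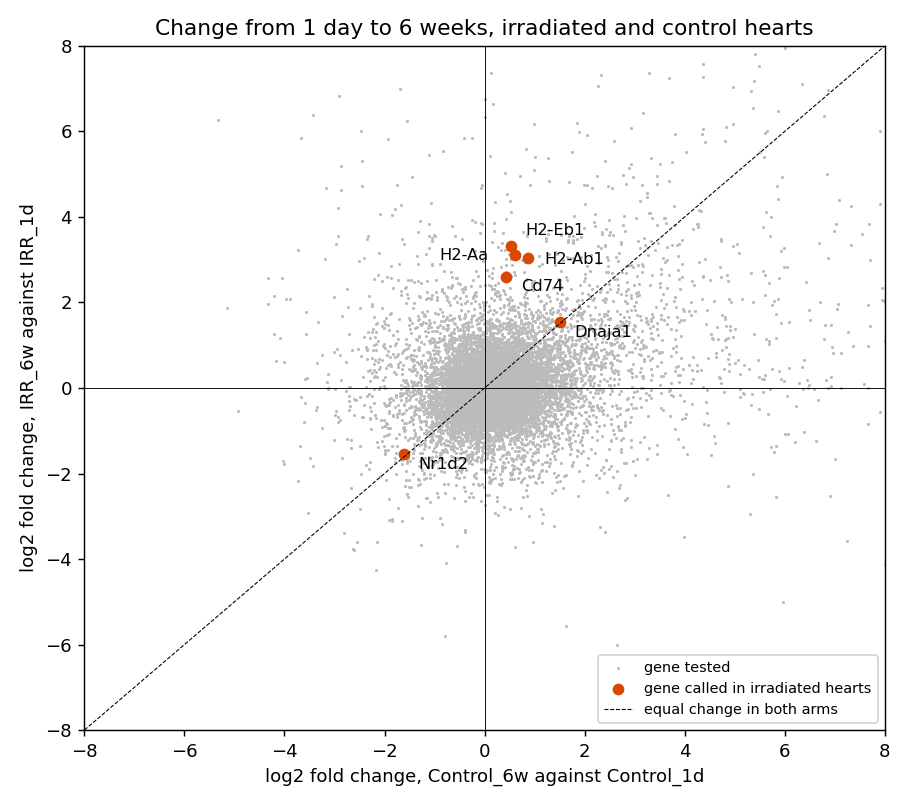
Change of each tested gene from 1 day to 6 weeks as a log2 fold change in control hearts (x axis) and in irradiated hearts (y axis), with 57 genes lying outside the axes at 8. H2-Eb1, H2-Aa, H2-Ab1 and Cd74 sit far above the line of equal change, and Nr1d2 and Dnaja1 sit on it.

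H2-Eb1, H2-Aa, H2-Ab1 and Cd74 are MHC class II genes, and the rest of that list was higher with them in the late irradiated heart. All 11 listed members passed the fold limit at an unadjusted p, against 3.06% of all genes, and 4 were called. Their median log2 fold change was 3.11 in irradiated hearts and 0.68 in controls, against medians of -0.018 and 0.121 over all genes. H2-Eb1 and H2-Aa encode the β chain of I-E and the α chain of I-A, 2 class II molecules. The 300 bases around their start sites are shown because class II genes are known to share an upstream module, of which GCAACT (part of the X box) and CTGATTGG (Y box) are in capitals. The windows are chr17:34305617-34305916 on the plus strand and chr17:34287774-34288073 on the minus strand (RefSeq, GRCm38.p6).
H2-Eb1: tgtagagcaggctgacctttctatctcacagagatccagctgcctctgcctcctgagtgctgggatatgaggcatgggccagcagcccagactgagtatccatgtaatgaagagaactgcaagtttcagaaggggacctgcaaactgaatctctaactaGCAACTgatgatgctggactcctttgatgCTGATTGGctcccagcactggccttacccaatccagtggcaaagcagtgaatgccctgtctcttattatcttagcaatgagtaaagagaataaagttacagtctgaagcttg
H2-Aa: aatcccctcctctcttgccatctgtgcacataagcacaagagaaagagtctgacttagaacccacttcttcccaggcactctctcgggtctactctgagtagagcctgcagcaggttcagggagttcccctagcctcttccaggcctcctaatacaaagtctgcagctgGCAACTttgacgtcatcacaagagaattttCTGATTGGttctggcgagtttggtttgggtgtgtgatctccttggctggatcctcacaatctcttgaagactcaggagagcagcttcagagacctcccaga
Searched on both strands, GCAACT was found in 10.9% and CTGATTGG in 4.09% of 32817 promoter windows, and 0.466% held both. These letters were chosen after the values were seen, and a match is a description and not a binding site. H2-Ab1 was not matched.

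H2-Eb1 (chr17:34305877-34316199, mm10) was at 21.97, 15.02 and 22.1 CPM in IRR_1d and at 130.1, 213, 213 and 229.9 CPM in IRR_6w. Controls were at 61.7, 38.1 and 59.9 CPM in Control_1d and 86.6, 86.8, 59.8 and 75.2 CPM in Control_6w. The IRR_1d libraries thus lay below every control and the IRR_6w libraries above every control, with no overlap. Its log2 fold change was 3.32 ± 0.31 (SE, edgeR adjusted p = 0.000311) in irradiated hearts and 0.53 ± 0.27 in controls. The difference of changes, 2.79 (95% interval 1.91 to 3.66), had the smallest p of all genes and missed the threshold (edgeR adjusted p = 0.0673).

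H2-Aa rose from 24.7, 20.5 and 26.6 CPM in IRR_1d to 155, 272, 169 and 234 CPM in IRR_6w, with 46.1 to 77.7 CPM in Control_1d and 82.9 to 118 in Control_6w. H2-Ab1, the β chain of I-A, was at 16.8, 12.4 and 15.6 CPM early and 98.5, 163, 128 and 97.99 CPM late. Cd74, the invariant chain that holds class II molecules until peptide is loaded, was at 69.1, 58.4 and 88.5 CPM early and 449.9, 608, 338 and 352 CPM late. In all 3 genes the early irradiated libraries were below all early controls and the late ones above all late controls, and early and late irradiated libraries did not overlap. Their log2 fold changes were 3.11 ± 0.296, 3.03 ± 0.34 and 2.602 ± 0.32 (edgeR adjusted p = 0.000311, 0.00149 and 0.0034), beside 0.61, 0.88 and 0.43 in controls. Ciita, the co-activator that class II transcription depends on, was at 0.858 to 1.92 CPM in IRR_1d and 6.74 to 12.5 in IRR_6w, with a log2 fold change of 2.72 ± 0.54 that was not called (edgeR adjusted p = 0.116). The list ran from 1.74 to 6.11, and 9 of 11 members did not overlap between IRR_1d and IRR_6w, against 5.47% of all genes.

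**Figure D2:**
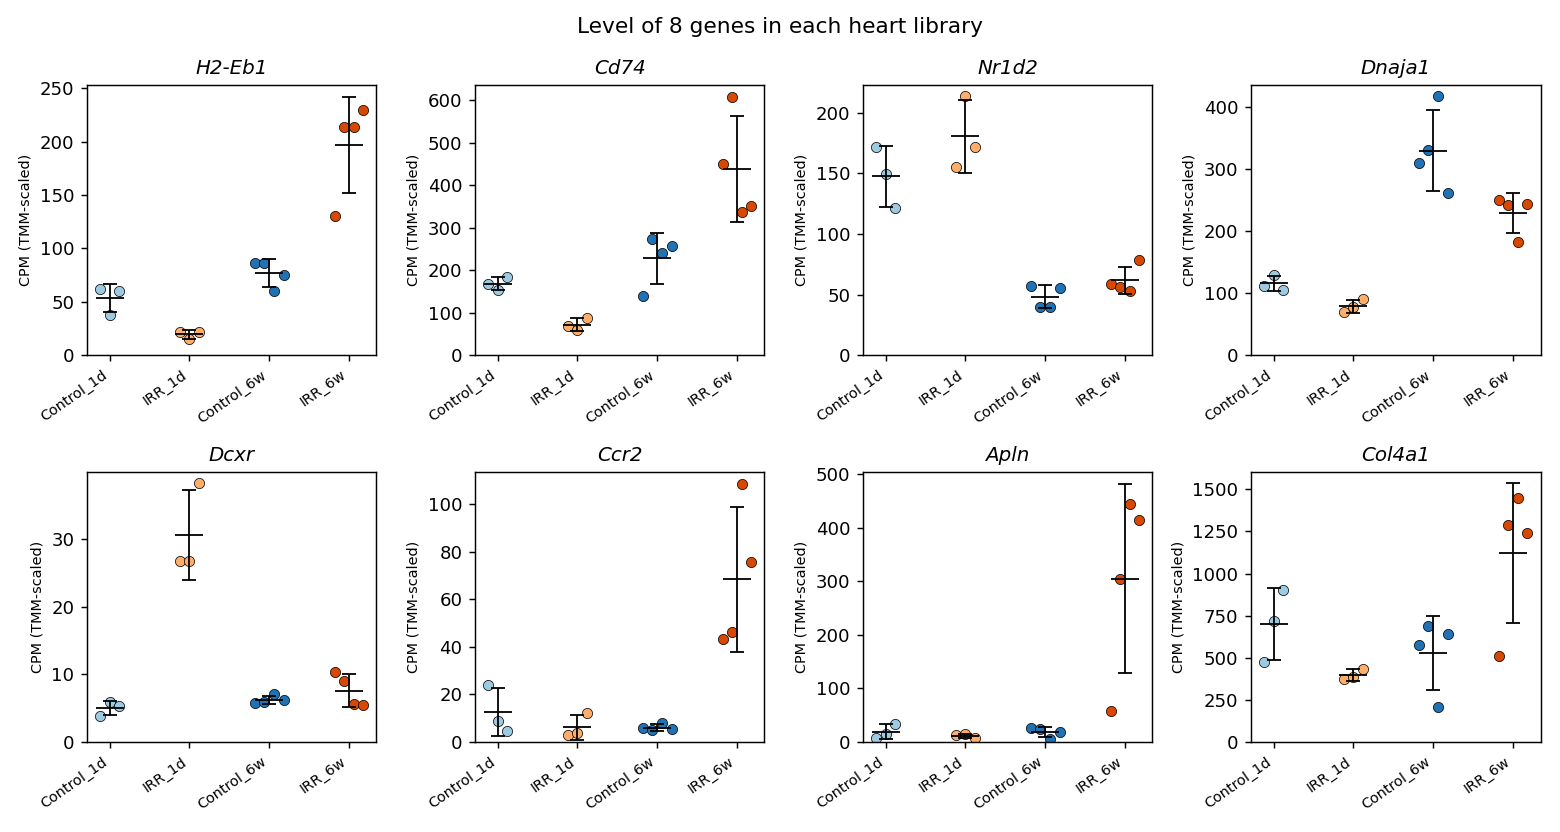
Level in CPM of 8 genes in each library (points), with mean and SD (bars), for Control_1d, IRR_1d, Control_6w and IRR_6w on linear axes from 0. H2-Eb1 and Cd74 are lowest in IRR_1d and highest in IRR_6w, Nr1d2 and Dnaja1 differ between the times in both arms, and Dcxr is highest in IRR_1d.

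Nr1d2 and Dnaja1 were called in irradiated hearts and had nearly equal estimates in controls. Nr1d2, a nuclear receptor that represses clock genes (REV-ERBβ), was at 155, 214 and 172 CPM in IRR_1d and 58.8, 56.4, 53.3 and 78.4 CPM in IRR_6w. Controls were at 172, 149.6 and 122 CPM early and 57.01, 40.1, 40.05 and 55.7 CPM late. Neither arm overlapped between time points, and both arms overlapped each other at each time. The log2 fold change was -1.55 ± 0.24 (edgeR adjusted p = 0.0389) in irradiated hearts and -1.62 ± 0.24 (adjusted p = 0.127) in controls, and their difference of 0.067 had a 95% interval of -0.65 to 0.79.

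Dnaja1, a co-chaperone of HSP70, was at 69.9, 77.6 and 90.5 CPM in IRR_1d and 250.4, 242, 182 and 243 CPM in IRR_6w, with 112, 129 and 106 CPM in Control_1d and 309, 330.3, 418 and 261 CPM in Control_6w. Early and late libraries did not overlap in either arm, and irradiated libraries lay below all controls of their time. Its log2 fold change was 1.53 ± 0.24 (edgeR adjusted p = 0.0389) against 1.51 ± 0.24 in controls, with a difference of 0.021 (95% interval -0.703 to 0.75).

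Of the 19 clock genes, Nr1d2 was called, and at an unadjusted p 6 were lower (0.786% of all genes) and 2 higher (3.06%) past the fold limit in irradiated hearts, and 4 lower (1.03%) and 5 higher (2.72%) in controls. Per3, a period gene, was at 37.7, 42.1 and 41.1 CPM in IRR_1d and 17.7, 6.32, 6.87 and 5.89 CPM in IRR_6w, with a log2 fold change of -2.13 ± 0.37 (edgeR adjusted p = 0.064) and -1.34 ± 0.36 in controls. The early irradiated libraries were also above all early controls (15.5 to 21.3 CPM). Tef and Hlf, activators that bind D boxes, had log2 fold changes of -1.41 and -1.34 in irradiated hearts and -0.18 and -0.24 in controls. In both, the 3 IRR_1d libraries lay above every Control_1d library, at 201 to 204 against 96.7 to 117 CPM for Tef. Cry1, a repressor of the clock, went the other way. It was at 10.3 to 12.7 CPM early and 17.3 to 38.3 CPM late in irradiated hearts, and at 9.66 to 14.9 CPM early and 34.6 to 44.9 CPM late in controls (difference of changes -0.76, 95% interval -1.73 to 0.21).

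Heat shock chaperones, which refold damaged proteins, had positive changes in 15 of 20 members in irradiated hearts and in 20 of 20 in controls. At an unadjusted p, 7 of 20 were higher past the limits in irradiated hearts (3.06% of all genes) and 6 of 20 in controls (2.72%). Medians were 0.72 and 0.55. Their order turned without the 3 libraries with many genes at 0 counts, to 0.41 and 0.602. Hsph1, a large HSP110 chaperone, was at 32.9, 43.5 and 40.5 CPM in IRR_1d and 188, 171, 292 and 719 CPM in IRR_6w (log2 fold change 3.14 ± 0.53, edgeR adjusted p = 0.064). Controls were at 62.5 to 182 CPM early and 215 to 399 CPM late, a change of 1.29, and the early irradiated libraries lay below all early controls. Hspa1a and Hspa1b, inducible HSP70 genes whose near-identical sequences can share reads, had changes of 3.45 and 3.98 against 1.77 and 3.34 in controls. Hsp90aa1 and Dnajb1 had changes of 1.84 and 1.46 against 1.47 and 0.49.

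Promoters of 3 genes of these groups are shown with the letters of known elements in capitals. For Dnaja1 (chr4:40722218-40722517, plus strand) and Hsph1 (chr5:149636287-149636586, minus strand) these are paired heat shock units, GAANNTTC or TTCNNGAA, and for Per3 (chr4:151044616-151044915, minus strand) the D box TTATGTAA (RefSeq, GRCm38.p6, first window listed per gene).
Dnaja1: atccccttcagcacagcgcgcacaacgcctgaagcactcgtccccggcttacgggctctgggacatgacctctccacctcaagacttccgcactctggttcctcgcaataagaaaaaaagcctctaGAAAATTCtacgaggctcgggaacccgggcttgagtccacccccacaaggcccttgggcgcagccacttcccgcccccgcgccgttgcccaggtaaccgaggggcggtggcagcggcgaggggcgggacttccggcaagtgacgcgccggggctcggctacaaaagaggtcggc
Hsph1: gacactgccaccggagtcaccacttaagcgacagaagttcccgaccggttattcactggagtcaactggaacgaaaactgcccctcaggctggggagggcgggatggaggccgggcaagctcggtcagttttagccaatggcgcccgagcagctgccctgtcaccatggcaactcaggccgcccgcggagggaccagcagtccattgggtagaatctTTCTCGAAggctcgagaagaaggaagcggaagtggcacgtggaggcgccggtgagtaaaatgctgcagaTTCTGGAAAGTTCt
Per3: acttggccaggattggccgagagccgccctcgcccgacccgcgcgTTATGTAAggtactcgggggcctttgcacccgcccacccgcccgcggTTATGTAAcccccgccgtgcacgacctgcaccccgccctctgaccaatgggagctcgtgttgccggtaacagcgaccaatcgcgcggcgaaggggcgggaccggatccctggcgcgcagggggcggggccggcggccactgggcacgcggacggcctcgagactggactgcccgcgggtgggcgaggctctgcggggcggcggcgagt
Each heat shock pair is its own reverse complement, and 15.1% of the 32817 windows held at least 1 of them, while TTATGTAA on either strand was in 0.935%. The matches in the last bases of Hsph1 overlap each other. The window of Nr1d2 held neither TTATGTAA nor the E box CACGTG, the latter present in 7.15% of windows.

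Targets of p53 had positive changes in 13 of 30 members in irradiated hearts and 19 of 30 in controls. Dcxr, a carbonyl reductase, was at 26.7, 26.7 and 38.2 CPM in IRR_1d and 10.3, 9.03, 5.6 and 5.46 CPM in IRR_6w, while the 7 controls lay between 3.82 and 7.12 CPM. The late irradiated libraries overlapped the late controls. The log2 fold change was -2.01 ± 0.33 (edgeR adjusted p = 0.0601) against 0.31 ± 0.34 in controls, with a difference of -2.32 (95% interval -3.33 to -1.31, edgeR adjusted p = 0.37). Ephx1, an epoxide hydrolase, was at 210.1, 148 and 244 CPM early and 103, 80.99, 43.95 and 54.6 CPM late, and the late libraries still lay above all late controls (19.4 to 40.2 CPM). Its change was -1.51 ± 0.33 (edgeR adjusted p = 0.208) against -0.25 in controls. Sesn2, a stress sensor that restrains mTOR, was at 30.6 to 46.7 CPM early and 12.4 to 21.5 CPM late (change -1.15) and also stayed above all late controls at 4.64 to 6.67 CPM.

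Cdkn1a, which encodes the cell cycle inhibitor p21, did not follow Dcxr. It was at 176, 183 and 255 CPM in IRR_1d and 144, 244, 284 and 258 CPM in IRR_6w, overlapping, against 23.2 to 57.99 and 30.2 to 99.5 CPM in controls. Irradiated libraries lay above all controls of the same time at both times. Its change was 0.18 ± 0.39. Mdm2, the ubiquitin ligase that degrades p53, was at 116 to 158 CPM early and 68.9 to 109.9 CPM late (change -0.68), and overlapped the controls late. Of the 30 listed p53 targets, 4 were lower and 0 higher past the limits at an unadjusted p (0.786% and 3.06% of all genes), and the median was -0.29 against 0.36 in controls. Without Control_6w replicate 3 the control median was 0.184. The irradiated median was -0.101 without IRR_6w replicate 1 and -0.152 without the 3 libraries with high fat transcripts. Without those with many genes at 0 counts the medians were -0.58 and 0.124.

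Monocyte and macrophage genes had positive changes in 20 of 26 members in irradiated hearts and 15 of 26 in controls. Ccr2, the chemokine receptor by which blood monocytes enter tissue, was at 2.9, 3.6 and 12.4 CPM in IRR_1d and 43.1, 46.3, 108 and 75.6 CPM in IRR_6w, and between 4.62 and 23.8 CPM in the 7 controls. The 4 late irradiated libraries lay above all others. The log2 fold change was 3.44 ± 0.64 (edgeR adjusted p = 0.0754) and -1.04 ± 0.56 in controls, with a difference of 4.48 (95% interval 2.66 to 6.30, edgeR adjusted p = 0.343). Mpeg1, a pore-forming protein of macrophages, was at 11.6, 17.5 and 34.6 CPM early and 70.8, 107, 109 and 126 CPM late (change 2.28 ± 0.41, edgeR adjusted p = 0.0745) without overlap, and had a change of 0.38 in controls. Cx3cr1, the fractalkine receptor of patrolling monocytes and resident macrophages, was at 2.13 to 3.57 CPM early and 5.23 to 19.2 CPM late, and its early irradiated libraries were below all early controls. C1qb, a complement subunit made by macrophages, was at 62.8 to 74.04 CPM early and 98.6 to 173 CPM late. Of 26 macrophage and monocyte genes, 9 were higher and 1 lower past the limits at an unadjusted p (3.06% and 0.786% of all genes), with a median of 0.903 against 0.11 in controls. The number higher was 4 without the 3 libraries with many genes at 0 counts (share of all genes not given).

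Interferon-stimulated genes had positive changes in 33 of 39 cases in irradiated hearts and 16 of 39 in controls, and the size of their changes differed between sets of libraries. Rsad2, the antiviral enzyme viperin, was at 28.5, 41.2 and 76.7 CPM in IRR_1d and 229, 142, 229 and 322 CPM in IRR_6w, while controls were at 60.1 to 134 CPM early and 29.6 to 71.7 CPM late. Early and late irradiated libraries did not overlap. Its change was 2.24 ± 0.43 (edgeR adjusted p = 0.0931), that in controls -0.97 ± 0.398, and their difference 3.21 (95% interval 1.95 to 4.46, edgeR adjusted p = 0.343). Ifit2, which binds foreign RNA, was at 30.6, 40.1 and 90.4 CPM early and 29.7, 173, 209 and 279 CPM late, with IRR_1d replicate 3 above and IRR_6w replicate 1 below the rest of their groups, so that the groups overlapped. The 39 listed genes had a median of 0.76 in irradiated hearts and -0.11 in controls. At an unadjusted p, 11 of 39 were higher past the limits (3.06% of all genes) and 0 lower. Without the 3 libraries with high fat transcripts, which include these 2, the median was 1.64, the control median -0.22, and edgeR called 14 of 39 as higher (0.565% of all genes in that fit). Ifit2 then had a change of 2.64 (edgeR adjusted p = 0.00325) and a difference of changes of 2.92 (edgeR adjusted p = 0.025). Irgm1, an interferon-γ-induced GTPase, had a change of 1.11, and 1.74 without those libraries (edgeR adjusted p = 0.023). Leaving out instead the 3 libraries with many genes at 0 counts, the list median was 0.33, with Ifit2 at 0.91 and Irgm1 at 0.81. In that fit 2 of 39 were higher at an unadjusted p (share of all genes not given) and 0 were called by edgeR.

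The list of MHC class I and immunoproteasome genes, which serve to present peptides from inside the cell, had positive changes in 15 of 16 members in both arms. At an unadjusted p 7 of 16 were higher past the limits in irradiated hearts (3.06% of all genes) and 1 of 16 in controls (2.72%). The irradiated number was 11 without the 3 libraries with high fat transcripts and 4 without those with many genes at 0 counts (shares of all genes not given). H2-K1 was at 201, 207 and 329.9 CPM in IRR_1d and 607, 604, 725 and 747 CPM in IRR_6w, and at 155 to 206 and 212 to 345 CPM in controls, with no overlap between time points in either arm. Its change was 1.45 ± 0.27 (edgeR adjusted p = 0.0762) against 0.54 ± 0.26. H2-D1 had a change of 1.17 against 0.75, and H2-Q6 one of 1.96 against 0.799. H2-K1, H2-D1 and H2-Q6 are near copies of each other, and the split of reads between them is uncertain. The 16 listed genes had medians of 0.89 and 0.67, the latter 0.417 without Control_6w replicate 3. Il4ra, the receptor chain for interleukins 4 and 13, was at 20.7 to 24.04 CPM early and 41.5 to 64.4 CPM late (change 1.31 ± 0.23, edgeR adjusted p = 0.0659) and a change of 0.55 in controls.

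Chemokines, the signals that attract leukocytes, had a median change of 1.25 over 18 genes, against 0.33 in controls. Without Control_6w replicate 3 the control median was 0.0697. In irradiated hearts 6 of 18 were higher past the limits at an unadjusted p (3.06% of all genes). That number was 9 of 16 tested without the 3 libraries with high fat transcripts and 2 of 18 without those with many genes at 0 counts. Shares of all genes in the latter 2 fits are not given. Ccl8, a ligand for monocytes and T cells, was at 1.61, 1.63 and 9.38 CPM in IRR_1d and 41.1, 29.5, 23.9 and 16.6 CPM in IRR_6w, and between 0.616 and 3.13 CPM in controls. The late libraries lay above all others, with a change of 2.72 ± 0.74 (edgeR adjusted p = 0.429). Cxcl9 and Cxcl10, ligands of CXCR3 on T cells, had changes of 1.401 and 3.13. With all libraries DESeq2 called neither (adjusted p = 0.204 and 0.141), and it gave control changes of 0.067 and 0.52. For both genes IRR_6w replicate 1 was the lowest late irradiated library, at 12.5 and 3.74 CPM.

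Genes of angiogenesis had positive changes in 17 of 22 members in irradiated hearts and 11 of 22 in controls, with 0 called by edgeR. Apln, the apelin peptide of sprouting endothelial tip cells, was at 12.3, 14.1 and 7.8 CPM in IRR_1d and 57.3, 303, 444 and 414 CPM in IRR_6w, and between 4.96 and 34.5 CPM in the 7 controls. All 4 late irradiated libraries lay above all others, IRR_6w replicate 1 nearest to them. The log2 fold change was 4.74 ± 0.79 (edgeR adjusted p = 0.0603) against -0.052 ± 0.65, with a difference of 4.79 (95% interval 2.60 to 6.99, edgeR adjusted p = 0.37). Esm1, a proteoglycan of tip cells, was at 1.22, 2.58 and 1.85 CPM early and 5.18, 14.5, 259 and 70.7 CPM late, a spread of many fold within IRR_6w, with a change of 5.54 ± 1.14 (edgeR adjusted p = 0.134), and 2.38 without the 3 libraries with many genes at 0 counts. By DESeq2 the control change of Esm1 was -0.83. Angpt2, which loosens endothelial contacts, was at 6.87 to 11.9 CPM early and 17.7 to 33.96 CPM late without overlap (change 1.52, 0.39 in controls). Nrp2, a co-receptor for VEGF and semaphorins, had a change of 1.05 against -0.025. Of 22 angiogenesis genes, 8 were higher and 1 lower past the limits at an unadjusted p (3.06% and 0.786% of all genes), with a median of 0.56 against -0.0067. Without the 3 libraries with many genes at 0 counts, 5 were higher (share of all genes not given). Of 12 leukocyte adhesion genes tested, 9 had positive changes in irradiated hearts and 6 in controls. At an unadjusted p, 2 were higher past the limits (3.06% of all genes), and 0 without the 3 libraries with many genes at 0 counts (share not given). Among them Icam1 was at 17.6 to 27.4 CPM early and 36.4 to 71.6 CPM late, above all controls late, with a change of 1.25 ± 0.31 (edgeR adjusted p = 0.328). The summed level of general endothelial markers was 1373 to 1514 CPM in IRR_1d and 1824 to 2515 in IRR_6w, with 1706 to 2202 and 1721 to 2207 in controls. Without Fabp4, which fat cells also express, the sums overlapped at 921 to 1131 CPM in IRR_1d and 1033 to 1682 CPM in IRR_6w. Their part in these changes was not tested.

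Basement membrane genes had positive changes in 14 of 18 members in irradiated hearts and in 1 of 18 in controls. Medians were 0.49 and -0.34. At an unadjusted p 4 of 18 were higher past the limits (3.06% of all genes), and 2 without the 3 libraries with many genes at 0 counts (share of all genes not given). The control values moved with 1 library, the median being -0.099 with 8 of 18 positive without Control_6w replicate 3. Col4a1, a chain of the collagen IV sheet, was at 373, 384 and 436 CPM in IRR_1d and 511, 1286, 1448 and 1241 CPM in IRR_6w, with no overlap, although IRR_6w replicate 1 lay among the late controls (205 to 687 CPM). Its change was 1.496 ± 0.44 (edgeR adjusted p = 0.53) against -0.41 ± 0.42. Col4a2 had a change of 1.52, Nid2 (nidogen) one of 1.66 and Sparc, a collagen-binding protein, one of 1.17, against -0.38, -0.503 and -0.28 in controls. Pxdn, a peroxidase that crosslinks collagen IV, was at 88.7, 94.3 and 99.6 CPM early and 175, 188, 229 and 224 CPM late in irradiated hearts, and at 148 to 176 CPM early and 48.8 to 108 CPM late in controls, without overlap in either arm and in opposite directions. The difference of changes was 1.94 (95% interval 1.14 to 2.74, edgeR adjusted p = 0.343).

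Fibrosis genes had a median change of 0.013, beside -0.018 over all genes, and 6 of 30 were higher and 1 lower past the limits at an unadjusted p (3.06% and 0.786% of all genes). Meox1, a factor of activated fibroblasts and endothelium, was at 12.3, 11.4 and 18.8 CPM early and 21.1, 67.5, 104 and 89.9 CPM late, with a change of 2.31 ± 0.54 (edgeR adjusted p = 0.27). Fn1 (fibronectin) was at 155, 127 and 407 CPM early and 656, 366, 690.0 and 489 CPM late, and exceeded all controls at both times. In Fn1, IRR_1d replicate 3 made the groups overlap. By DESeq2 the control changes were 0.13 for Meox1 and -0.038 for Fn1. Without the 3 libraries with high fat transcripts the list median was 0.67 against -0.29 in controls, and 7 of 30 genes were called higher (0.565% of all genes in that fit), with Fn1 at 1.87 and Meox1 at 2.87. Leaving out instead those with many genes at 0 counts gave -0.279, with 7 of 30 positive, and Fn1 at 1.15 and Meox1 at 1.64. In that fit 2 were higher at an unadjusted p (share of all genes not given) and 0 were called by edgeR. Fibroblast markers did not follow, with a summed level of 3305 to 4846 CPM in IRR_1d and 2297 to 3562 in IRR_6w.

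**Figure D3:**
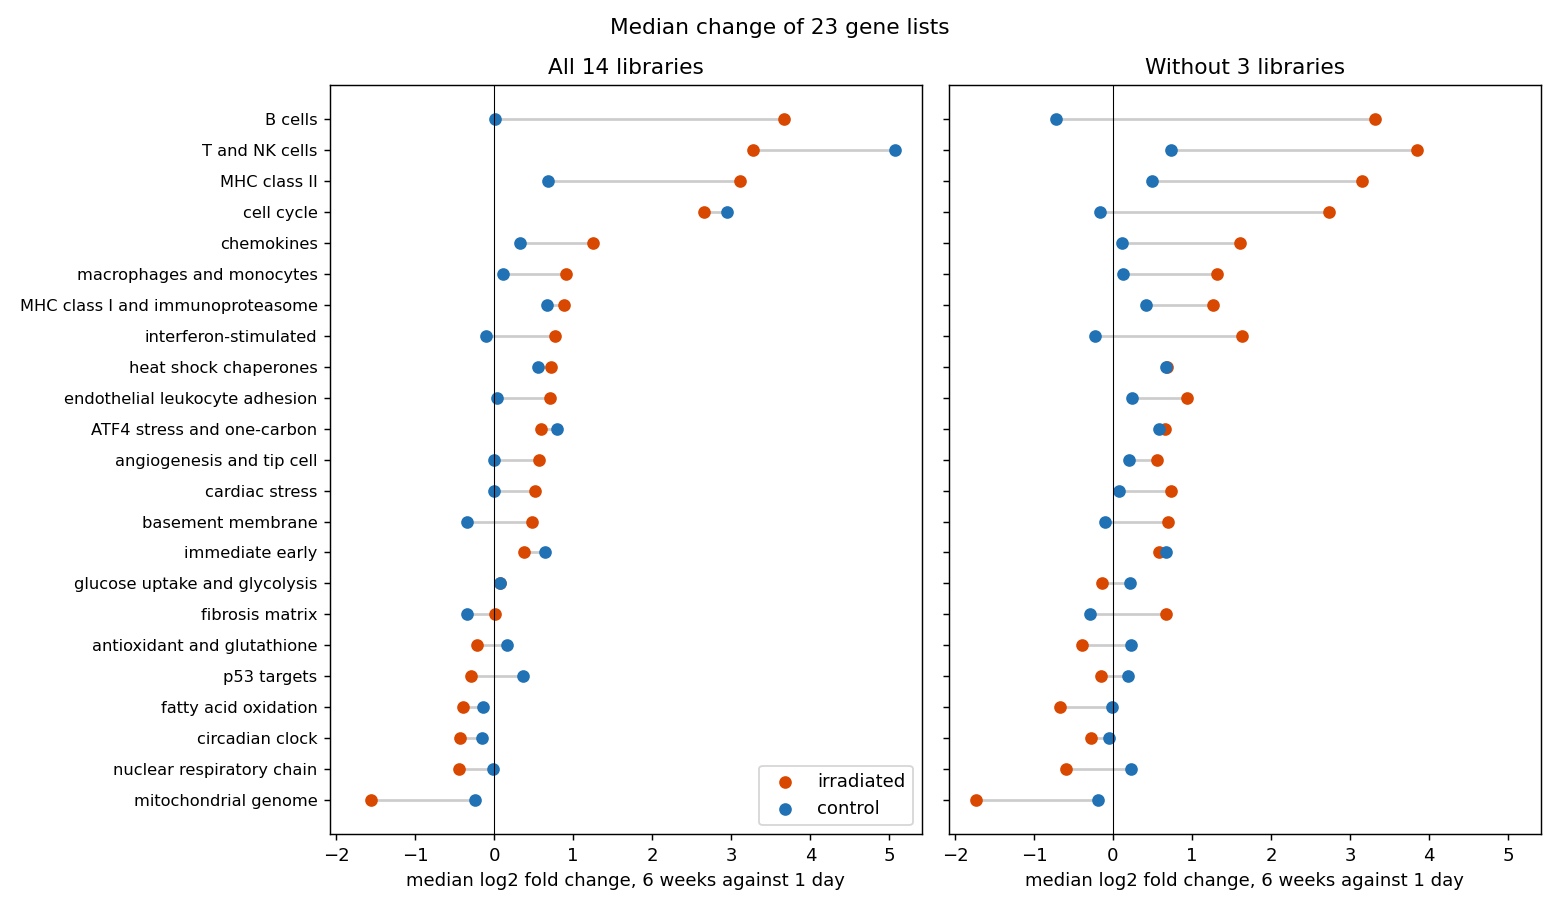
Median log2 fold change of each of 23 gene lists from 1 day to 6 weeks in irradiated (orange) and control (blue) hearts, with all 14 libraries (left) and without IRR_6w replicate 1, IRR_1d replicate 3 and Control_6w replicate 3 (right). The class II median is near 3 in irradiated hearts in both panels, and the control medians of T and NK cells and of the cell cycle drop in the right panel.

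Nearly all listed lymphocyte and cell cycle genes had positive changes in irradiated hearts. Ms4a1 (CD20), a B cell surface protein, was at 0, 0.601 and 0.066 CPM in IRR_1d, 22.8, 3.49, 9.67 and 1.995 CPM in IRR_6w, 16.1, 0.906 and 1.77 CPM in Control_1d and 3.65, 0.995, 4.56 and 2.36 CPM in Control_6w. Late irradiated libraries overlapped the controls. All 15 tested B cell genes had positive changes, with a median of 3.67 against 0.0053 in controls. Without Control_6w replicate 3 the control median was -0.714, with 3 of 15 positive. In irradiated hearts 9 passed the limits at an unadjusted p (3.06% of all genes). That number was 3 without IRR_6w replicate 1, 4 without the 3 libraries with high fat transcripts and 14 without those with many genes at 0 counts. For these fits the share of all genes is not given. Ighd, the heavy chain of IgD, had a change of 3.64 ± 1.07 (edgeR adjusted p = 0.518) and -1.34 in controls. Jchain, which joins secreted antibodies, varied from 0.462 to 92.8 CPM within Control_1d.

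T and NK cell genes had a median of 3.28 in irradiated hearts and 5.07 in controls. The control value rested on Control_6w replicate 3, where Cd8a was at 710.0 CPM, and it was 0.73 without it. Summed thymus markers, Cd8a among them, were at 2.45 to 2.83 CPM in IRR_1d and 10.6 to 40.3 CPM in IRR_6w. They were at 59.7 CPM in Control_6w replicate 4, and their part in these changes was not tested. Cd8a, a co-receptor of cytotoxic T cells, had 0 counts in all 3 IRR_1d libraries, which allows up to 3 in each by counting alone, and was at 6.04, 2.71, 3.62 and 7.79 CPM in IRR_6w. For the cell cycle, 29 of 30 genes had positive changes in irradiated hearts, 13 of 30 passed the limits at an unadjusted p (3.06% of all genes) and 18 did not overlap between IRR_1d and IRR_6w (5.47%). In controls 30 of 30 were positive and 12 passed (2.72% of all genes), but without Control_6w replicate 3 these were 10 and 0. The irradiated number was 17 without the 3 libraries with high fat transcripts and 9 without those with many genes at 0 counts. Shares of all genes in these fits are not given. Top2a, which untangles replicated DNA, was at 0.838, 1.89 and 0.991 CPM early and 17.7, 31.9, 38.4 and 52.7 CPM late, with 7.21 to 10.9 CPM in Control_1d and 7.31, 4.13, 473 and 13.7 CPM in Control_6w. The late irradiated libraries were above and the early ones below all controls but Control_6w replicate 3. Mki67, a marker of cycling cells, was at 1.42, 1.29 and 1.72 CPM early and 23.9, 47.9, 16.7 and 24.5 CPM late, with 9.09 to 19.95 CPM in Control_1d. The cell cycle median was 2.66 against 2.95 in controls, and the latter was -0.17 without Control_6w replicate 3. Without the 3 libraries with high fat transcripts the change of Top2a was 4.92 (edgeR adjusted p = 0.00632) and its difference of changes 5.11 (edgeR adjusted p = 0.0312), and for Mki67 these were 4.45 (0.00867) and 4.74 (0.0343).

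Transcripts of the mitochondrial genome, which encodes core subunits of the respiratory chain, took a smaller share of the late irradiated libraries. The share was 29.4, 40.2 and 28.1% in IRR_1d and 13.9, 22.2, 16.7 and 10.4% in IRR_6w, with no overlap, and 20.3, 44.2 and 30.8% in Control_1d and 26.9, 25.5, 22.3 and 30.3% in Control_6w. The difference of -16.8 percentage points had p = 0.0286 in a two-sided exact permutation test over 35 assignments, the smallest these group sizes allow, and in controls it was -5.53 points (exact permutation p = 0.457). The control groups overlapped through Control_1d replicate 1 alone, a library with many genes at 0 counts. By gene, 15 of 15 had negative changes in irradiated hearts, 9 were lower past the limits at an unadjusted p (0.786% of all genes) and 11 did not overlap, against 3.84% of all genes. The median was -1.55 against -0.25 in controls, and 0 passed the adjusted threshold in edgeR. With limma-voom and sample weights, mt-Nd1 (-1.96, adjusted p = 0.0272) and mt-Co3 (-2.46, adjusted p = 0.0345) were called, but their differences of changes were not (adjusted p = 0.274 and 0.587). DESeq2 gave adjusted p = 0.0734 and 0.119 for these 2 genes, and limma-voom without weights 0.533 and 0.586. Without the 3 libraries with many genes at 0 counts, 4 of the 15 were lower past the limits at an unadjusted p (share of all genes not given). The medians were then -1.25 in irradiated hearts, -0.766 in controls and -0.51 for the difference of changes, which was -1.09 with all libraries. mt-Nd1, a complex I subunit, was at 36822, 56174 and 33023 CPM early and 12422, 24825, 11967 and 5176 CPM late, with 15618 to 66559 and 19766 to 35191 CPM in controls. mt-Co3, a cytochrome oxidase subunit, had a change of -2.07 ± 0.72 (edgeR adjusted p = 0.668). Cardiomyocyte markers had summed levels of 18115 to 38558 CPM in IRR_1d and 9282 to 33914 in IRR_6w, and their part in this change was not tested.

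**Figure D4:**
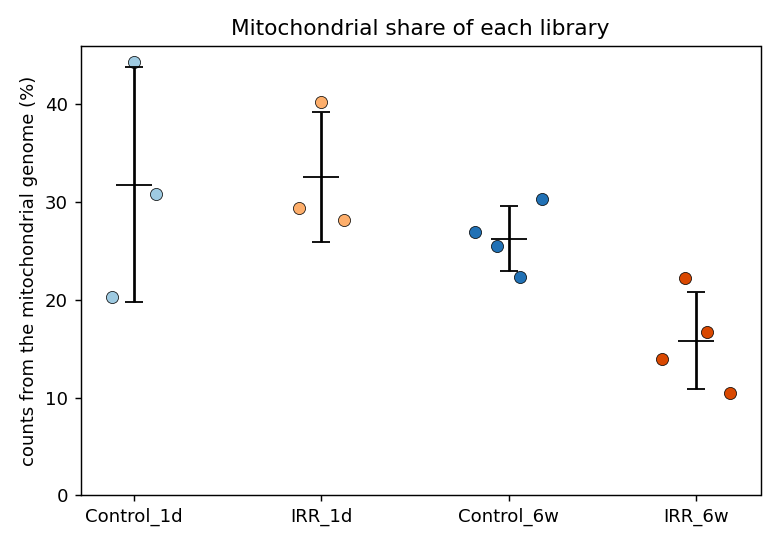
Percent of all counts that came from the mitochondrial genome in each library (points), with mean and SD (bars), by group. The 4 IRR_6w libraries lie below the 3 IRR_1d libraries, while the control groups overlap through Control_1d replicate 1 alone.

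Nuclear genes of the respiratory chain had a median of -0.45 over 34 genes (2 positive) against -0.0085 in controls (16 positive), and 0 passed the limits even at an unadjusted p. Without Control_6w replicate 3 the control median was 0.222, with 30 of 34 positive. Scaling by library totals moved the irradiated median to -0.125 as it moved all genes. Ndufv2, a complex I subunit, had a change of -0.73 ± 0.36. Fatty acid oxidation genes, the main fuel pathway of adult heart, had medians of -0.398 and -0.14, with Etfa at -0.69 and Cpt2 at -0.53. By DESeq2, Etfa and Cpt2 had control changes of -0.16 and -0.35. Without Control_6w replicate 3 the control median was -0.0177, and without the 3 libraries with high fat transcripts the irradiated median was -0.668. Pdk4, which shuts glucose carbon out of mitochondria, was at 2047, 2104 and 922 CPM in Control_1d and 304 to 625 CPM in Control_6w, but at 291 to 445 CPM in IRR_1d and 330.3 to 796 CPM in IRR_6w. The early controls stood above all other groups, and the difference of changes was 2.52 (95% interval 1.35 to 3.69, edgeR adjusted p = 0.4001). Ucp3, an inner membrane carrier, was lower late in both arms (-1.36 and -2.49). In glucose metabolism, the transporter Slc2a1 was at 12.1 to 14.8 CPM early and 15.99 to 62.3 CPM late (change 1.403, edgeR adjusted p = 0.531) and Pfkp, a phosphofructokinase, had a change of 1.09 against -0.18 in controls.

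Cardiac stress genes had positive changes in 11 of 15 members in irradiated hearts and 7 of 15 in controls. Nppb, the natriuretic peptide released by stretched cardiomyocytes, was at 4.7, 70.8 and 51.9 CPM early and 204, 236, 289 and 238 CPM late, with a change of 2.51 ± 0.75 (edgeR adjusted p = 0.53) against 0.99 in controls. Ankrd1, a sarcomere stress protein, was at 328 to 690.3 CPM early and 874 to 1597 CPM late and exceeded all late controls. Of 15 cardiac stress genes, 4 were higher past the limits at an unadjusted p (3.06% of all genes) and 0 were called by edgeR, with a median of 0.51. The median was -0.336 and 1 of 15 passed without the 3 libraries with many genes at 0 counts (share of all genes not given). Nr4a3, a rapidly induced nuclear receptor, was at 1.61 to 5.15 CPM early, below all early controls, and 11.1 to 24.2 CPM late (change 2.62 ± 0.495, edgeR adjusted p = 0.0789). Atf3, a stress-induced repressor, had a change of 2.91 against 1.16 in controls, and Klf6 one of 1.21 against -0.15. Of the 26 immediate early genes, 6 were higher past the limits at an unadjusted p in irradiated hearts (3.06% of all genes) and 3 in controls (2.72%), with 0 called by edgeR and medians of 0.37 and 0.65. Without the 3 libraries with many genes at 0 counts the order of the medians turned, to 0.604 and 0.262. The numbers higher were then 6 and 0 (shares of all genes not given). Genes under ATF4, the factor of amino acid shortage, had positive changes in 18 of 21 members in irradiated hearts and 19 of 21 in controls (medians 0.59 and 0.79), among them Mthfd2 of mitochondrial folate metabolism (2.32 and 2.14), the transporter Slc7a5 (1.65 and 1.27) and Asns, asparagine synthetase (2.03 and 1.303). Without the 3 libraries with high fat transcripts these were 2.40 and 1.24 for Mthfd2, 1.88 and 0.996 for Slc7a5 and 2.49 and 0.733 for Asns.

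Some genes had changes of opposite sign in the arms, and others were lower late in both. Adamts12, a secreted metalloprotease, was at 9.16 to 22.3 CPM in Control_1d and 1.6, 1.84, 3.25 and 3.91 CPM in Control_6w, but at 7.12 to 11.5 CPM in IRR_1d and 11.8 to 18.4 CPM in IRR_6w (difference of changes 3.04, 95% interval 1.72 to 4.37, edgeR adjusted p = 0.37). Sele, E-selectin of activated endothelium, was at 0.076, 1.38, 0.57 and 0.741 CPM in Control_6w and 5.29, 4.998, 9.86 and 9.4 CPM in IRR_6w (difference of changes 3.32). Cyp26b1, which degrades retinoic acid, was at 76.1, 178 and 6.94 CPM in IRR_1d and 3.68, 3.61, 0 and 0 CPM in IRR_6w, against 1.94 to 7.05 and 11.2 to 18.8 CPM in controls. The early irradiated values spread widely, and the 2 zeros fall in libraries with many genes at 0 counts. Aqp4, a water channel, was lower late in both arms, with changes of -2.603 ± 0.48 (edgeR adjusted p = 0.0754) and -1.91 ± 0.48. Fign, a microtubule-severing enzyme, likewise had changes of -1.52 and -1.77, and Sema6a, a guidance protein, one of -1.43 and -0.67.

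Cmpk2, Ifit3, Dhx58 and Thbs1 were followed by the study beside Slc2a1. With all libraries, DESeq2 gave control changes of 0.67 for Cmpk2, -0.41 for Ifit3, -0.59 for Dhx58, 1.08 for Thbs1 and 0.36 for Slc2a1. Cmpk2, a mitochondrial nucleotide kinase induced by interferon, was at 20.9, 22.2 and 48.4 CPM in IRR_1d and 18.2, 64.4, 114 and 106 CPM in IRR_6w (change 1.31 ± 0.54, edgeR adjusted p = 0.811). Without the 3 libraries with high fat transcripts its change was 2.13 (edgeR adjusted p = 0.0192). Controls then had 0.89, and the difference of changes was not called (edgeR adjusted p = 0.558). Ifit3, which has a near copy in Ifit3b, was at 40.6, 33.99 and 232 CPM early and 46.5, 159, 149 and 196 CPM late, and irradiated libraries exceeded the controls of the same time at both times. Its change was 0.43 ± 0.59 with all libraries and 2.17 (edgeR adjusted p = 0.0123) without those 3 libraries, of which IRR_1d replicate 3 held the highest value. It was 0.0091 without the 3 libraries with many genes at 0 counts, where Slc2a1 had 0.375, Cmpk2 0.44, Dhx58 0.083 and Thbs1 0.69 (edgeR adjusted p = 1 for each). Without the libraries with high fat transcripts, Ifit3 had -0.39 in controls, and its difference of changes, 2.56, was called (edgeR adjusted p = 0.0357). Dhx58, a regulator of RNA sensing, had a change of 0.597 ± 0.58, and 1.64 without the libraries with high fat transcripts (edgeR adjusted p = 0.323). Thbs1, the matrix protein thrombospondin 1 that activates TGF-β, was at 40.02, 31.1 and 199 CPM early and 159.6, 131, 556 and 620.5 CPM late. The groups overlapped through IRR_1d replicate 3. Thbs1 had a change of 2.02 ± 0.74 (edgeR adjusted p = 0.734), and 3.61 without the libraries with high fat transcripts (edgeR adjusted p = 0.0308). In that fit it had 1.34 in controls, and its difference of changes was not called (edgeR adjusted p = 0.502). Without the libraries with high fat transcripts the change of Ctgf, a matrix growth factor, was also higher (1.77 with all libraries and 2.79), as was that of Ifi204, an interferon-induced DNA sensor (1.202 and 1.98).

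Without IRR_6w replicate 1, IRR_1d replicate 3 and Control_6w replicate 3, edgeR called 105 genes in irradiated hearts, 90 higher (0.565% of 15933 tested) and 15 lower (0.0941%), 1 gene in controls and 29 in the difference of changes. All 105 had the same sign with all 14 libraries, and the 6 genes called there were among them. Of the 90 higher genes, 73 had a change of less than 1 log2 unit in controls, and 25 were also called in the difference of changes. By list, the 90 included 14 interferon-stimulated, 7 fibrosis, 5 heat shock, 4 class II, 4 basement membrane and 4 cell cycle genes. Among genes called in the difference of changes were H2-Eb1 (2.92, edgeR adjusted p = 0.025), Apln (4.61, 0.0312), Ccr2 (5.76, 0.0312), Rsad2 (3.52, 0.0346) and Pxdn (1.84, 0.0312). The 15 lower genes included the clock genes Per3 (-2.65), Tef (-1.49), Hlf (-1.54) and Nr1d2 (-1.56) and the p53 targets Dcxr (-1.997) and Ephx1 (-1.58). Leaving out single libraries gave 3 to 36 calls, with H2-Eb1, H2-Aa and H2-Ab1 called in all 14 such fits, Cd74 in 12, Nr1d2 in 6 and Dnaja1 in 3. Without the 3 libraries with many genes at 0 counts, changes over 1.5 times smaller than with all were, beside those given, Cxcl10 (1.97), Icam1 (0.69), Pfkp (0.70), Sparc (0.66), Klf6 (0.65), Cry1 (0.64), Adamts12 (0.42), Pdk4 (0.25) and Ndufv2 (-0.42).

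**Figure D5:**
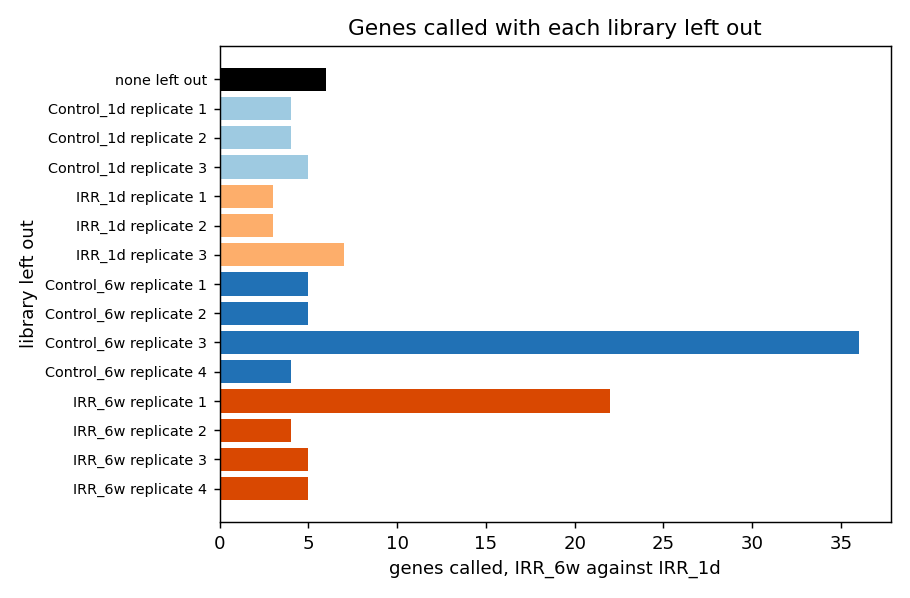
Number of genes called between IRR_6w and IRR_1d by edgeR with each library left out in turn (bars, colored by group), beside all 14 libraries (black). The number is 36 without Control_6w replicate 3 and 22 without IRR_6w replicate 1, and 3 without IRR_1d replicate 1 or 2.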

How the data were processed

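RNA of heart tissue from 14 mice was sequenced, and the authors deposited 1 table of whole-number counts per gene with symbols, mm10 coordinates and gene lengths, not normalized. Per the methods and processing notes, reads were checked with FastQC 0.11.8, trimmed with Trim Galore 0.6.1, aligned with STAR 2.5.0a and counted with HTSeq. The annotation release and strandedness were not given in the sources used here, so overlapping and antisense genes cannot be told apart. Groups came from the labels. Counts were tested in R 4.3.3 with edgeR 4.0.16 (filterByExpr, TMM, 1 quasi-likelihood fit of all 14 libraries, Benjamini-Hochberg over 16034 genes, fold above 2 or below 0.5). DESeq2 1.42.0, limma 3.58.1, other scalings, no filter, a replicate block and left-out libraries served as alternatives. CPM is TMM-scaled. Totals of 13336746 to 16837265 counts limit low genes, and intervals from counting cover counting error only.

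Members and gene lists were chosen with earlier results of these data known. Named genes were those called, the 10 higher and 10 lower with the smallest p and no overlap, up to 4 per list, the leading genes of the control and difference comparisons, genes the study named, and markers of other tissues, of which not all are printed. On data simulated for IRR_6w against IRR_1d (16034 genes), 37% of genes changed by 2 log2 units and 61% of those changed by 3 were called. For the difference of changes these were 10% and 35%. Changed genes were drawn only from those with more counts, and no simulated library was given transcripts of other tissues or added zeros. These shares thus do not hold for all tested genes. Values of 2 listed genes are not reported here.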

Additional observations from a re-analysis of the deposited data

Results flagged for a closer look

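Pxdn, Sele, Adamts12 and Cyp26b1 had changes of opposite sign in the arms, with every library of a time point on one side of every library of the other. The difference of changes was 1.94 for Pxdn, 3.32 for Sele, 3.04 for Adamts12 and -7.202 for Cyp26b1, and none of these 4 passed edgeR's adjusted threshold with all libraries. DESeq2 called Pxdn (adjusted p = 0.000197) and Adamts12 (0.00283), but not Sele (0.117) or Cyp26b1 (0.0987). With limma-voom 0 genes were called in the difference of changes, and with sample weights Pxdn was called (adjusted p = 0.00752).

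In Control_6w and IRR_6w, a library stood far from the other 3 of its group (Dixon's test) in 18 of 178 checks. These checks share libraries, and many of the genes were chosen for their changes, so the number cannot be set against a chance rate. The groups at 1 day, with 3 libraries each, were not checked. Control_6w replicate 3 was below the rest for Apln (4.96 CPM), Pxdn (48.8), Nid2 (6.21), Col4a1 (205), Col4a2 (104), Nppb (28.4) and Etfa (389), and above it for Bub1 (61.98) and Mki67 (694). IRR_6w replicate 1 was below the rest for H2-Eb1 (130.1 CPM), Col4a1 (511), Col4a2 (305) and C1qb (98.6), and above it for Per3 (17.7) and Ighd (8.63). IRR_6w replicate 4 was above the rest for Cry1 (38.3 CPM), IRR_6w replicate 3 below it for Dnaja1 (182), and Control_6w replicate 1 above it for Esm1 (4.49). These values enter the comparisons as measured.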

How the results depend on the processing

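The number of genes called depended on the tool and on a few libraries, and the cause was not tested. For IRR_6w against IRR_1d it was 6 with all libraries, 26 without the filter on low counts, 140 with DESeq2, 10 with limma-voom, 333 with limma-voom and sample weights, 617 at an unadjusted p and 105 without the 3 libraries with high fat transcripts. For the controls it was 0, and 6, 26, 0, 58, 601 and 1 under the same settings. For the difference of changes it was 0, and 9, 37, 0, 18, 458 and 29. Leaving out 1 library gave 3 to 36 calls for irradiated hearts (3 without IRR_1d replicate 1 or 2, 22 without IRR_6w replicate 1, 36 without Control_6w replicate 3), 0 in every fit for controls and 0 to 3 for the difference of changes (1 without Control_1d replicate 2, 2 without IRR_6w replicate 1, 3 without Control_6w replicate 3). Without the 3 libraries with many genes at 0 counts, an alternative added after seeing the data, 4 genes were called in irradiated hearts.

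Values near 0 changed sign. The difference of changes of Nr1d2 was -0.025 without the 3 with high fat transcripts and -0.154 without the 3 with many zeros, and ran from -0.0684 to 0.173 with single libraries left out. That of Dnaja1 ran from -0.0851 to 0.159. Cdkn1a in irradiated hearts was at -0.0768 without the 3 libraries with many zeros, and Ifit3 ran from -0.00886 to 1.88. Scaling by library totals shifted the median change of all genes by 0.314 in irradiated hearts, 0.157 in controls and 0.155 in their difference. The list medians of p53 targets and antioxidant genes in irradiated hearts then became 0.0423 and 0.107.

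Replicate numbers did not pair the libraries, with same-numbered correlations of -0.151, 0.0269 and -0.177 in irradiated hearts and 0.141, 0.00208 and -0.0909 in controls. With the replicate number as a block, 5, 0 and 0 genes were called in the 3 comparisons. In 1 of the 6 checks the library correlated best with its own number. Depth limits genes of a few CPM, where 3 counts cannot be told from 0.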

Other observations

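Without IRR_6w replicate 1, IRR_1d replicate 3 and Control_6w replicate 3, some genes outside the lists were called, and they are named after their values were seen. Ccnd1, cyclin D1, rose by 2.61 log2 units in irradiated hearts (edgeR adjusted p = 0.00248) and had 0.33 in controls. Depp1, a target of FOXO factors, rose by 2.46 (edgeR adjusted p = 0.00193), with 0.399 in controls. Angptl4, an inhibitor of lipoprotein lipase, rose by 2.89 in irradiated hearts and had -2.64 in controls, and its difference of changes was 5.53 (edgeR adjusted p = 0.025). Prg4, the lubricating proteoglycan 4, fell by 2.62 in irradiated hearts (edgeR adjusted p = 0.0101).

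The summed level of 10 marker genes of male germ cells was 103, 95.8 and 77.9 CPM in Control_6w replicates 1, 2 and 3 and 0.269 CPM in replicate 4. In the 7 irradiated libraries the sum was at most 0.422 CPM, and in Control_1d at most 0.154 CPM.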
